A study of Mus musculus with 12 samples.

Results

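Myoblasts labelled as knockouts of Lbr were compared with myoblasts of a wild-type littermate. These are 3 of the 12 samples of an RNA sequencing study of mice lacking nuclear envelope proteins, 2 knockout samples and 1 wild-type sample. The knockout samples are represented by a single deposited column of FPKM values (fragments per kilobase of transcript, scaled to sequencing depth), and the wild-type sample by another. All animals carried the C57Bl/6 label and came from crosses of heterozygous parents. For each myoblast litter 2 homozygous knockouts and 1 wild type were processed. A wild-type myoblast sample from the litter of a different knockout, that of Lmna, served as a second control. Those 2 control columns are called the own-litter and the other-litter wild type. The labels give neither the age, the sex, the part of Lbr that was deleted nor the time in culture. Of the 22552 genes in the table, 11463 were compared, namely the genes whose mean reached 1 FPKM over the 4 myoblast columns of the study (both knockouts and both wild types) and a value above 0 in both compared columns. Of these, 11457 also had a value above 0 in the other-litter wild type. Kctd7 and Abhd15, with means of 1.00 FPKM, lay just inside this limit. Slc25a43 and Tmem22, with means of 0.999 FPKM, lay just outside it.

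Differences are given as knockout minus wild type after adding 1 FPKM and taking log2, so that weakly expressed genes appear less changed than they were. A gene is said to have risen or fallen when it differed from the own-litter wild type by at least 2-fold on that scale, a log2 difference of 1 or more in size. A gene that did neither is said not to have changed, whatever its distance from the other-litter wild type. With a single column per group there is no replicate spread, no p-value and no check of any difference between animals. The distance between the wild-type columns is the one measure here of how far 2 libraries of like genotype lay apart, and it includes the difference between litters. The log2 difference between the wild types had an SD over genes of 0.427, against 0.331 for the knockout minus its own-litter wild type. Myoblasts are the dividing precursors of muscle fibres. When they leave the cell cycle, the transcription factor myogenin and its partners switch on the genes of the contractile apparatus, and the cells fuse into myotubes. The lamin B receptor, the product of Lbr, spans the inner nuclear membrane, where it binds lamin B and heterochromatin protein 1. Its membrane part is a sterol reductase of cholesterol synthesis, an activity it shares with the product of Tm7sf2.

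Lbr itself had 7.71 FPKM in the knockout column, 16.1 FPKM in the own-litter wild type and 14.7 FPKM in the other-litter wild type. The log2 differences were -0.97 and -0.85, so the targeted gene was still read in the knockout column and missed the 2-fold limit. The column of Lmna-knockout myoblasts, in which Lbr was not targeted, stood at 13.5 FPKM. The cells also carried few marks of undifferentiated myoblasts. Pax7, the transcription factor of muscle stem cells, was listed at 0.273, 0.253 and 0.152 FPKM in the knockout, the own-litter and the other-litter wild type. Myf5, an early myogenic factor, stood at 0.377, 0.241 and 0.441 FPKM in the same order, and Cdh15, the muscle cadherin, at 1.22, 1.16 and 0.877 FPKM. Myod1, the factor that commits cells to muscle, was higher, at 5.51, 2.46 and 5.35 FPKM. Some genes typical of fibroblasts were abundant in all 3 columns, Col1a1 at 1121, 1109 and 1151 FPKM and Thy1, a surface glycoprotein, at 250, 272 and 306 FPKM. Others were not. Lum stood at 2.43, 1.67 and 0.303 FPKM, and Tcf21, Dpt and Pi16 were below 1 FPKM in all 3 columns. Of 18 listed fibroblast genes, 15, 15 and 14 reached 1 FPKM in the knockout, the own-litter and the other-litter wild type. Sex-linked genes were not matched between the columns. Xist, the RNA that coats the inactive X chromosome, had 56.6 FPKM in the knockout column, 0.00569 FPKM in the own-litter wild type and 6.67 FPKM in the other-litter wild type. The Y-linked genes Ddx3y (11.6, 21.4 and 8.0 FPKM) and Eif2s3y (23.1, 22.8 and 10.1 FPKM) were read in every column. The part of sex in the differences below was not tested.

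Over all genes compared, 284 rose (2.48%) and 14 fell (0.122%). The median log2 difference was 0.05, with an interquartile range of -0.07 to 0.18. Against the other-litter wild type, 176 genes were at least 2-fold higher (1.54%) and 62 at least 2-fold lower (0.541%), with a median of -0.01. Only 52 genes (0.454%) were at least 2-fold above both wild types and 9 (0.0786%) at least 2-fold below both. Of the 284 genes that rose, 222 were above the other-litter wild type by some amount and 61 were below it. In 134 of the 284 the wild types were themselves at least 2-fold apart, with the own-litter library the lower one. Over all genes, the own-litter wild type was the lower by at least 2-fold at 233 genes (2.03%) and the higher at 78 (0.681%). In number, 42 of the risen genes belonged to 9 lists of muscle genes, 41 to 5 lists of macrophage, complement, antigen presentation, chemokine and lysosome genes, and 201 to none of these.

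**Figure D1:**
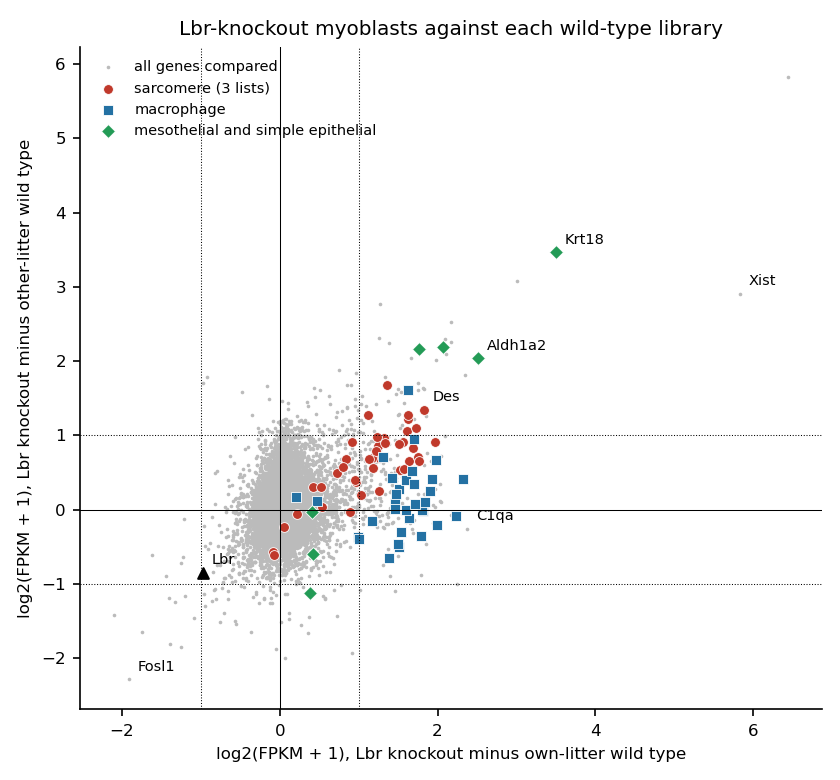
Each point is a gene, placed by its log2(FPKM + 1) difference between the Lbr-knockout column and the own-litter wild type (horizontal) and the other-litter wild type (vertical), with dotted lines at 2-fold. Sarcomere genes (red) lie to the right and mostly above 0 on both axes, macrophage genes (blue) lie to the right with a median of 0.08 on the vertical axis, and 4 mesothelial genes (green) lie beyond 2-fold on both. The black triangle is Lbr.

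Contractile genes were the largest group of muscle genes to rise. Of 41 sarcomere genes compared, 27 rose and 0 fell, with a median log2 difference of 1.24, against 2.48% and 0.05 over all genes. Against the other-litter wild type the median of the same 41 genes was 0.69, and 7 were at least 2-fold above both wild types. Xirp2, counted among the 27 and the 7, reached the mean of 1 FPKM only through the knockout column. The order of the columns was the same for most members: 34 of the 41 (82.9%) were highest in the knockout, intermediate in the other-litter wild type and lowest in the own-litter wild type, an order found in 12.0% of all genes. A further 17 sarcomere genes were not compared, 16 of them for a mean under 1 FPKM, and 15 of the 17 were also above the own-litter wild type. Of all genes compared, 6977 of 11463 were above it. In 9 of the 17 all 3 columns were below 1 FPKM.

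Promoter sequences of 4 muscle genes that rose are shown because myogenin and Myod1 proteins bind the E-box, whose letters are CANNTG. The 4 stand for a light and a heavy myosin chain, an anchoring filament and the regulator itself. Each is the 250 bases before the annotated start, on the plus strand, from RefSeq on GRCm38.p6, with E-boxes in capitals. The regions are chr7:127211358-127211607 for Mylpf, chr1:75360042-75360291 for Des, chr1:134289754-134290003 for Myog and chr11:67078050-67078299 for Myh3.
Mylpf: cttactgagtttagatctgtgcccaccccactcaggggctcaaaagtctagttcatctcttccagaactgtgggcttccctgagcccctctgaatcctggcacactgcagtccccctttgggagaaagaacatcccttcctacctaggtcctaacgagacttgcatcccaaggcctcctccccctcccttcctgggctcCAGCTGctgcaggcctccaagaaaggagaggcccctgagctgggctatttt
Des: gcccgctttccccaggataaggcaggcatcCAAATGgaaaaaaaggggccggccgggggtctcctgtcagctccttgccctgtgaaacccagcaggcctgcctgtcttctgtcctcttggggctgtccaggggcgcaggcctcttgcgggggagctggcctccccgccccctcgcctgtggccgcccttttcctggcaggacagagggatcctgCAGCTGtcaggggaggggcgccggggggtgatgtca
Myog: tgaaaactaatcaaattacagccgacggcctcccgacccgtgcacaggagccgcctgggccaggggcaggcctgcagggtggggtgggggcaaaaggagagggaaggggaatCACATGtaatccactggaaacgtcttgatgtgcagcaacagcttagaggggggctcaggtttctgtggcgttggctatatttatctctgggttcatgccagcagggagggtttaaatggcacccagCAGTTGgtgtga
Myh3: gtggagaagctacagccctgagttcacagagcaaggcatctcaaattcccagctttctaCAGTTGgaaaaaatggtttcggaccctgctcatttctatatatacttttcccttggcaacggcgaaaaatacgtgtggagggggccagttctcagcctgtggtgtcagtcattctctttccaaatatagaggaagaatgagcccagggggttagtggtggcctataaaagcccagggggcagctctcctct
The Des and Myog windows hold 2 E-boxes each and the other windows 1 each. CANNTG reads the same on both strands. Of the 27 sarcomere genes that rose, 21 had a promoter in the table, and 17 of these (81.0%) held an E-box within the window, against 55.6% of the 8133 promoters of compared genes and 66.2% of all 32851 promoters in the table. The form CAGCTG, present in the Mylpf and Des windows and itself a kind of CANNTG, was in 8 of the 21 (38.1%), against 11.4% and 13.0%. A match is a run of letters and was not tested as a binding site.

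In the thick filament, 7 of 10 myosin-associated genes rose and 0 fell, with medians of 1.40 and, against the other-litter wild type, 0.75. Myh3, which encodes the embryonic myosin heavy chain, had 25.6 FPKM in the knockout, 7.67 FPKM in the own-litter and 10.4 FPKM in the other-litter wild type. Myh8, the perinatal heavy chain, stood at 13.4 FPKM in the knockout, against 3.67 and 4.94 FPKM in the wild types. The log2 differences were 1.62 and 1.23 for Myh3 and 1.63 and 1.28 for Myh8, and these were the only thick filament genes at least 2-fold above both. Among adult heavy chains, Myh1 had 12.0 FPKM in the knockout, against 4.54 and 6.47 FPKM, whereas Myh2, Myh4 and Myh7 stayed at 1.43, 1.55 and 0.925 FPKM in the knockout and below 0.8 FPKM in both wild types. FPKM being scaled to transcript length, the embryonic chain was thus the most abundant heavy chain of these 6 in all 3 columns. Light chains followed the same order: Mylpf, of fast fibres, had 196 FPKM in the knockout, 57.5 FPKM in the own-litter and 119 FPKM in the other-litter wild type. Myl4, the embryonic and atrial light chain, had 74.4 FPKM, against 23.3 and 46.7 FPKM. Both were above both wild types, but their differences to the other-litter wild type, 0.71 and 0.66, did not reach 2-fold. Mybph, a myosin-binding protein gene, had 9.08 FPKM in the knockout, against 4.43 and 9.31 FPKM, and so lay between the wild types.

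In the thin filament, 12 of 15 genes rose and 0 fell (medians 1.34 and 0.86). Actc1, the cardiac actin gene that is also expressed in embryonic skeletal muscle, had 147 FPKM in the knockout, 36.7 FPKM in the own-litter and 78.0 FPKM in the other-litter wild type, with log2 differences of 1.97 and 0.90. The troponin genes, whose products switch contraction on with calcium, rose across fibre types. Tnnt3, the fast troponin T gene, stood at 46.0 FPKM in the knockout, against 13.2 and 20.8 FPKM, and Tnnt2, the cardiac and embryonic form, at 70.9 FPKM, against 22.5 and 33.6 FPKM. Both were at least 2-fold above both wild types, with differences to the other-litter wild type of 1.11 and 1.05. The slow form Tnnt1 rose by 1.51 and the troponin C genes Tnnc2 and Tnnc1 by 1.68 and 1.53, but these 3 genes lay less than 2-fold above the other-litter wild type. Neb, which encodes the filament ruler nebulin, had 9.38 FPKM in the knockout, against 3.78 and 3.27 FPKM, with differences of 1.12 and 1.28. The tropomyosin genes Tpm2 (461, 486 and 705 FPKM) and Tpm3 (170, 146 and 177 FPKM), which are also expressed outside muscle, differed by -0.08 and 0.22 from the own-litter wild type. Tpm1 was listed at 0 in the knockout column, at 1960 FPKM in the own-litter and 2905 FPKM in the other-litter wild type, and at 0 in the Lmna-knockout column. Tpm1 was therefore not compared.

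At the Z-disc, which anchors the thin filaments, 8 of 16 genes rose and 0 fell (medians 0.99 and 0.61). Des, the intermediate filament desmin, had 85.2 FPKM in the knockout, 23.3 FPKM in the own-litter and 32.9 FPKM in the other-litter wild type. Its log2 differences were 1.83 and 1.35. Xirp2, which encodes an actin-binding repeat protein of the Z-disc and myotendinous region, had 3.19 FPKM in the knockout, against 0.632 and 0.309 FPKM, with differences of 1.36 and 1.68. Xirp2 reached the mean of 1 FPKM only through the knockout column. Being compared thus required it to be high there, so its rise gives no separate support. Actn2 and Actn3, the alpha-actinins of muscle, rose by 1.26 and 1.17 and were 0.69 and 0.70 above the other-litter wild type. Flnc, the muscle filamin gene, with 25.3, 24.4 and 29.9 FPKM, differed by 0.05.

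**Figure D2:**
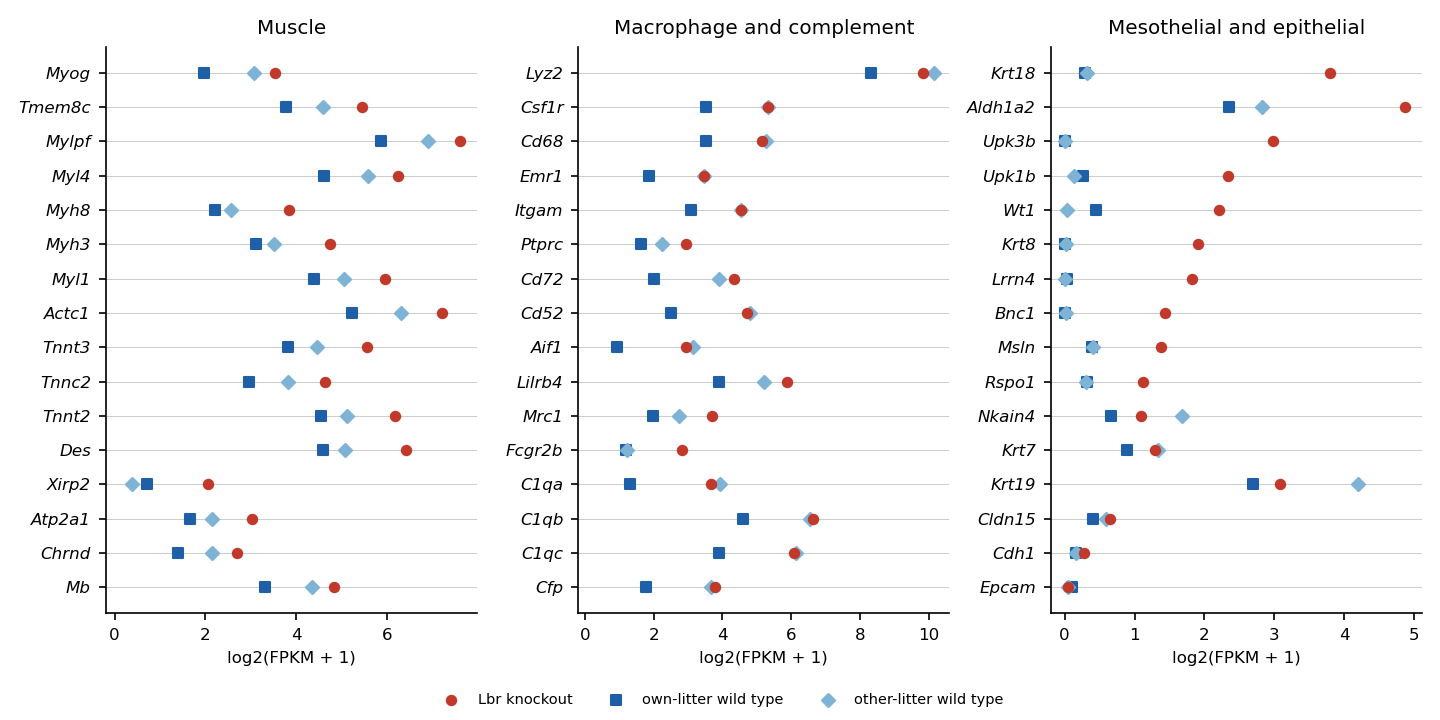
Levels on the log2(FPKM + 1) scale of 48 genes in the Lbr-knockout column (red circles), the own-litter wild type (dark blue squares) and the other-litter wild type (light blue diamonds). In the muscle panel the knockout is the highest column for every gene shown; in the macrophage panel the own-litter wild type is the lowest column for every gene, and for Fcgr2b the wild types nearly coincide; in the mesothelial panel the first 10 genes are highest in the knockout with both wild types near each other.

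The regulators of the muscle programme changed less than its products. Of 10 myogenic transcription factor genes compared, 1 rose and 0 fell (medians 0.28 and 0.24). That gene was Myog, with 10.5 FPKM in the knockout, 2.94 FPKM in the own-litter and 7.47 FPKM in the other-litter wild type, so that its difference of 1.54 to its own litter stood beside 0.44 to the other. Mef2c, a partner of the myogenic factors, had 13.3 FPKM, against 6.62 and 5.45 FPKM, differences of 0.91 and 1.15. Mef2a stood at 36.6, 29.0 and 20.2 FPKM. Myod1 and Hes6 differed from the own-litter wild type by 0.91 and 0.75, and from the other by 0.04 each. None of 17 genes of satellite cells and Notch signalling changed (medians -0.06 and 0.02). The Notch target Hey1 stood at 11.6, 13.0 and 9.24 FPKM, and the ligand gene Jag1, with 24.1, 36.7 and 30.2 FPKM, was the furthest below the own-litter wild type, at -0.58.

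Other genes of contraction and fusion included both members that rose and members that did not. Of 11 genes of excitation-contraction coupling 6 rose and 0 fell (medians 1.12 and 0.51). Atp2a1, the calcium pump of the fast sarcoplasmic reticulum, had 7.19 FPKM in the knockout, 2.14 FPKM in the own-litter and 3.46 FPKM in the other-litter wild type, differences of 1.38 and 0.88. Cacng1, a subunit of the voltage-gated calcium channel, had 5.02 FPKM, against 1.16 and 3.47 FPKM (1.48 and 0.43). Sln, whose small product sarcolipin restrains that pump, was the only member at least 2-fold above both wild types, with 3.62 FPKM, against 1.03 and 1.22 FPKM. Sln and Hrc, both among the 6 that rose, reached the mean of 1 FPKM only through the knockout column. Being compared thus required them to be high there, so their rise gives no separate support. Atp2a2, the pump gene used by most cells, was at 146, 142 and 155 FPKM. Of 8 genes of the acetylcholine receptor and the neuromuscular junction 3 rose and 0 fell: the receptor subunit genes Chrng, Chrnd and Chrna1 by 1.33, 1.30 and 1.02, and each was about 0.5 above the other-litter wild type. The medians of the 8 were 0.23 and 0.30. Among 14 genes of myoblast fusion and membrane repair 2 rose and 0 fell (medians 0.05 and 0.24). These were Tmem8c, which encodes the fusion protein myomaker, at 43.0 FPKM in the knockout, against 12.8 and 23.1 FPKM (1.67 and 0.87), and the caveolin gene Cav3 (1.06 and 0.23). None of 13 genes of the dystrophin complex changed (medians 0.03 and 0.04), with Dmd itself at 7.95, 8.60 and 7.01 FPKM.

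Of 14 genes of muscle energy supply 3 rose and 1 fell (medians 0.29 and -0.07). Mb, which encodes myoglobin, had 27.5 FPKM in the knockout, 8.89 FPKM in the own-litter and 19.2 FPKM in the other-litter wild type, differences of 1.53 and 0.50. Pfkm and Eno3, the muscle forms of phosphofructokinase and enolase, rose by 1.25 and 1.03 and were 0.86 and 0.70 above the other-litter wild type. The gene that fell was Cox6a2, the heart and muscle form of a cytochrome oxidase subunit, at 0.563 FPKM in the knockout, against 3.11 and 4.49 FPKM, differences of -1.39 and -1.81. It stood at 0.177 FPKM in Lmna-knockout myoblasts. It was therefore low in both knockout columns, unlike the contractile genes: Myh3 and Mylpf had 1.25 and 18.7 FPKM in the Lmna-knockout column. In bulk samples such as these, more cells of a type and more RNA per cell cannot be told apart.

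Macrophage genes rose in nearly the whole list, while most lay near the other-litter wild type. Of 33 compared, 30 rose (90.9%) and 0 fell, with a median of 1.60. Against the other-litter wild type the median was 0.08, with 1 gene at least 2-fold higher and 0 lower. The wild types themselves differed by a median of -1.45 in these genes, own-litter minus other-litter. Summed over 36 listed genes, the level was 1651 FPKM in the knockout, 538 FPKM in the own-litter and 1865 FPKM in the other-litter wild type, and none of the 36 was at 0 in any of the 3 columns. Lyz2, the lysozyme gene of macrophages, had 918 FPKM in the knockout, 316 FPKM in the own-litter and 1131 FPKM in the other-litter wild type. Csf1r, the receptor that keeps macrophages alive, had 38.9 FPKM, against 10.4 and 39.2 FPKM. Emr1, which encodes the surface antigen F4/80, had 10.1 FPKM, against 2.66 and 10.1 FPKM. In each of these genes the knockout matched the other-litter wild type more closely than its own. The largest difference to the own-litter wild type was in Cd72, a lectin receptor gene, at 19.1 FPKM, against 3.03 and 14.0 FPKM (2.32 and 0.42), followed by Cd52, a small surface glycoprotein gene, at 25.4 FPKM, against 4.64 and 27.1 FPKM (2.23 and -0.09).

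Some members of the macrophage list departed from this pattern. Gpnmb, a glycoprotein gene, did not rise and stood at 20.95 FPKM in the knockout, against 18.1 and 18.6 FPKM (0.20 and 0.16). Cd84 and Clec4n also missed the limit, at 0.48 and 0.99. Fcgr2b, the inhibitory receptor for immunoglobulin G, had 6.11 FPKM in the knockout, 1.30 FPKM in the own-litter and 1.33 FPKM in the other-litter wild type, differences of 1.63 and 1.61. Mrc1, the mannose receptor gene, was the next furthest above the other-litter wild type, at 11.9 FPKM, against 2.98 and 5.70 FPKM, differences of 1.70 and 0.95. Ptprc, the common leukocyte antigen gene, had 6.71 FPKM, against 2.10 and 3.72 FPKM (1.31 and 0.71). None of 15 genes of T cells, B cells and mast cells was compared, and they summed to 2.60, 0.916 and 1.13 FPKM.

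Other immune genes followed the macrophage list to a smaller extent. Of 13 complement genes 6 rose and 1 fell (medians 0.90 and 0.09). The genes of the C1q chains, which macrophages make, were higher than in the own-litter wild type and close to the other: C1qa had 11.8 FPKM in the knockout, 1.47 FPKM in the own-litter and 14.3 FPKM in the other-litter wild type. C1qb had 99.3 FPKM, against 23.3 and 92.2 FPKM, and C1qc 66.5 FPKM, against 14.0 and 70.2 FPKM. The gene that fell, Cd59a, encodes a membrane inhibitor of complement lysis, and it had 16.0 FPKM, against 39.4 and 60.1 FPKM, differences of -1.25 and -1.85. Of 17 chemokine genes 3 rose (Ccl3, Cxcl16 and Ccl9), the list median being 0.57 against the own-litter and -0.36 against the other-litter wild type. Ccl7 was at 95.6 and 94.2 FPKM in the knockout and the own-litter wild type and at 276 FPKM in the other. In 3 of the 17 the knockout was below both wild types, against 22.4% of all genes, Cxcl1 (-0.70 and -1.39) and Cxcl5 (-0.59 and -0.36) among them. It was above both wild types in 4 of the 17, against 31.9% of all genes. Cxcl12, the stromal chemokine that guides muscle precursors, was one of these, at 107 FPKM in the knockout, against 60.1 and 59.7 FPKM (0.83 and 0.84), as was Cx3cl1, the fractalkine gene, at 20.4 FPKM, against 15.2 and 16.1 FPKM (0.40 and 0.32). Of 23 interferon-response and class I antigen genes 1 rose, Psmb9 (1.27, and -0.16 to the other wild type), with medians of 0.44 and -0.06. Of 26 lysosomal genes 1 rose, Ctss, and the medians were 0.35 and -0.09.

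**Figure D3:**
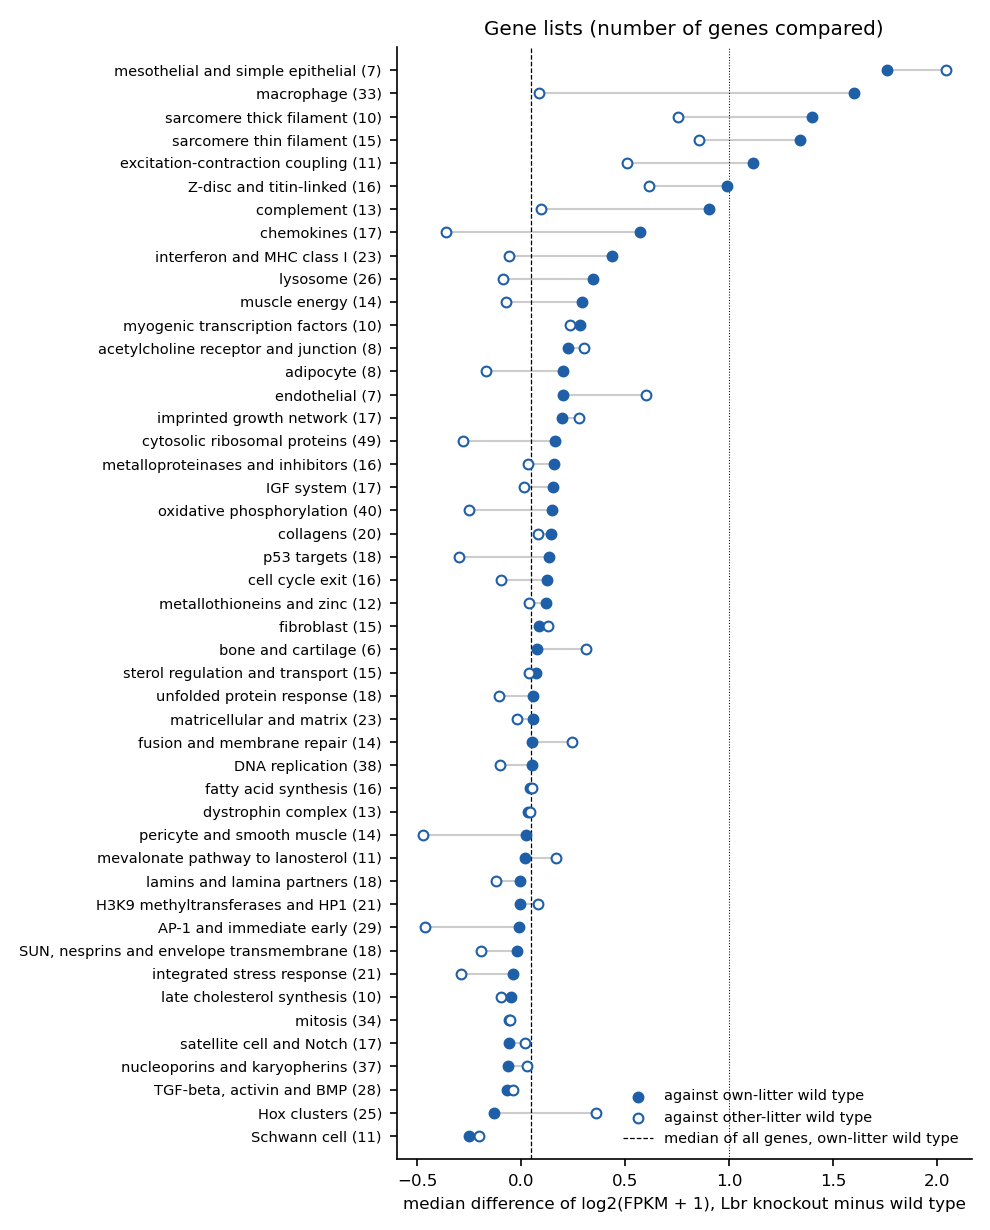
Median log2(FPKM + 1) difference of each gene list with at least 5 genes compared, Lbr knockout minus the own-litter wild type (filled) and minus the other-litter wild type (open), with the number of genes in parentheses. The mesothelial list lies beyond 1 with both controls, the sarcomere and coupling lists lie above 0.5 with both, the macrophage list lies at 1.60 and 0.08, and the sterol, nuclear envelope and cell cycle lists lie close to the dashed line, the median of all genes. Krt18, Upk1b and Wt1 of the mesothelial list passed the filter only through the knockout column.

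A list of genes of mesothelium, the simple epithelium that lines body cavities, and of simple epithelia in general divided into a set that was high in the knockout with either control and a set that was not. Of 7 compared, 4 rose, 0 fell, and all 4 were at least 2-fold above both wild types. Of these 4, Krt18, Upk1b and Wt1 reached the mean of 1 FPKM only through the knockout column. Being compared thus required them to be high in the knockout, so the count and the medians give no separate support. With no filter on the mean, the list median against the own-litter wild type was 0.41. The other 3 of the 7 lay between the wild types, below the other-litter one (medians of the 7 genes 1.76 and 2.04). Krt18, a keratin of simple epithelia, had 12.8 FPKM in the knockout, 0.219 FPKM in the own-litter and 0.251 FPKM in the other-litter wild type, differences of 3.50 and 3.47. Aldh1a2, which makes retinoic acid, had 28.2 FPKM, against 4.11 and 6.09 FPKM (2.51 and 2.04). Upk1b, a uroplakin gene, had 4.03 FPKM, against 0.201 and 0.0993 FPKM (2.07 and 2.19), and Wt1, a transcription factor of mesothelium and kidney, had 3.60 FPKM, against 0.359 and 0.0246 FPKM (1.76 and 2.17). The wild types both lay far below the knockout in these 4 genes. Of the other 3, Krt19, a keratin of simple epithelia, had 7.44 FPKM in the knockout, against 5.45 and 17.3 FPKM, differences of 0.39 and -1.12. Krt7, another such keratin, had 1.45 FPKM, against 0.849 and 1.51 FPKM (0.40 and -0.04), and Nkain4, a membrane protein gene, 1.12 FPKM, against 0.586 and 2.21 FPKM (0.42 and -0.60).

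Of the 21 listed mesothelial and epithelial genes in the table, 14 were not compared, 13 of them for a mean under 1 FPKM, and 10 of the 14 were higher in the knockout than in both wild types. Of all genes compared, 31.9% were above both. In 8 of the 14 all 3 columns were below 1 FPKM, where differences lie near the floor. Upk3b, another uroplakin gene, was at 6.93 FPKM in the knockout and listed at 0 in both wild types. Krt8, which encodes the partner of keratin 18, was at 2.76 FPKM in the knockout, listed at 0 in the own-litter wild type and at 0.0168 FPKM in the other. Lrrn4 (2.53 FPKM), Bnc1 (1.72 FPKM), Msln, the mesothelin gene (1.59 FPKM), and Rspo1 (1.17 FPKM) were above 1 FPKM only in the knockout among these 3 columns. The list summed to 77.2 FPKM in the knockout, 13.7 FPKM in the own-litter and 29.2 FPKM in the other-litter wild type, and 13, 2 and 4 of its 21 genes reached 1 FPKM. Of the general epithelial genes in the list, the E-cadherin gene Cdh1 stayed at or under 0.209 FPKM, and Epcam at or under 0.0721 FPKM. In the Lmna-knockout column Krt18 and Upk1b stood at 0.509 and 0.272 FPKM, but Aldh1a2 at 12.5 FPKM. A pooled column of 2 samples does not show whether these genes were read in both. How far this list bears on the other differences was not tested.

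The furthest genes above both wild types were of mixed kinds. Ctla2a, a cysteine protease inhibitor gene with a close relative, had 16.8 FPKM in the knockout, 2.94 FPKM in the own-litter and 2.09 FPKM in the other-litter wild type, differences of 2.17 and 2.53. Adcyap1r1, a neuropeptide receptor gene, had 9.49 FPKM, against 2.11 and 2.22 FPKM (1.75 and 1.70). Sfrp2, a secreted antagonist of Wnt signalling, had 15.03 FPKM, against 5.63 and 1.36 FPKM. Cyp7b1, an oxysterol hydroxylase gene, had 4.21 FPKM, against 1.07 and 0.513 FPKM. The interferon-inducible genes Ifi202b, Ifi204 and Ifi205 belong to a family of near copies, and their values are uncertain. Ifi204 had 19.8 FPKM, against 7.70 and 3.22 FPKM. Ifi202b had 9.93 FPKM, against 0.140 FPKM in the own-litter wild type, and was listed at 0 in the other. Ifi205 was lower than both, with 0.261 FPKM, against 4.40 and 2.39 FPKM. Of the genes in this paragraph, Cyp7b1 and Ifi202b reached the mean of 1 FPKM only through the knockout column, so being compared required them to be high there.

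**Figure D4:**
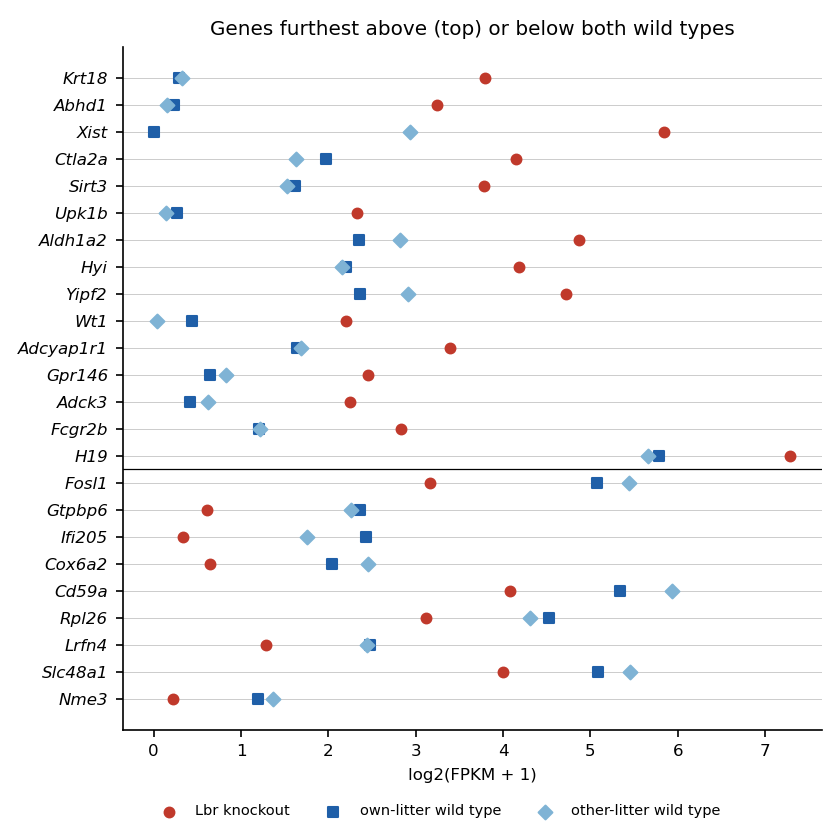
Levels on the log2(FPKM + 1) scale of the 15 named genes furthest above both wild types (top) and 9 of the 10 furthest below both (under the line), ranked by the smaller of the 2 differences. The Lbr-knockout column (red circles) lies apart from both the own-litter (dark blue squares) and the other-litter wild type (light blue diamonds) by construction; the wild types nearly coincide for Krt18, Hyi, Fcgr2b and Lrfn4 and lie far apart for Xist.

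Igf2 and H19, neighbouring imprinted genes that are expressed from opposite parental alleles, were both at least 2-fold above both wild types. Igf2, which encodes a growth factor of fetal muscle, had 171 FPKM in the knockout, 72.8 FPKM in the own-litter and 63.1 FPKM in the other-litter wild type, and the non-coding H19 had 155 FPKM, against 54.3 and 49.7 FPKM. In the Lmna-knockout column they stood at 114 and 56.9 FPKM. Of 17 genes of the imprinted growth network 3 rose, Igf2, H19 and the cell cycle inhibitor gene Cdkn1c, and 13 of the 17 lay above both wild types, against 31.9% of all genes, with medians of 0.20 and 0.28. Cdkn1c had 9.09 FPKM, against 2.78 and 7.02 FPKM. Peg3, a zinc finger gene of this network, stood at 28.1, 17.9 and 9.05 FPKM. Of 17 genes of the IGF system only Igf2 rose. Igf1 had 20.2 FPKM, against 10.4 and 17.3 FPKM (0.90 and 0.22), and Igfbp2, with 13.2 and 12.5 FPKM, was far below the 55.9 FPKM of the other-litter wild type.

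Among secreted signals of the TGF-beta family, 1 of 28 genes rose and 0 fell (medians -0.07 and -0.04). Bmp4, a bone morphogenetic protein gene, had 12.6 FPKM in the knockout, 3.73 FPKM in the own-litter and 5.37 FPKM in the other-litter wild type, differences of 1.53 and 1.10. The target genes Id1, Id2 and Id3 differed from the own-litter wild type by 0.14, -0.08 and -0.06. Inhba, which encodes the activin subunit, was abundant at 862, 1026 and 486 FPKM. Of 16 metalloproteinase and inhibitor genes 2 rose: Mmp13, the collagenase gene, at 9.59 FPKM, against 4.09 and 4.18 FPKM, and Adam8, at 27.4 FPKM, against 8.89 and 33.7 FPKM. None of 20 collagen genes and none of 15 fibroblast genes rose or fell. Against the other-litter wild type, 1 of the 15 fibroblast genes was at least 2-fold higher, Lum (1.395), and 1 at least 2-fold lower, Ly6a (-1.16), beside 1.54% and 0.541% of all genes. Col3a1 was at 528, 505 and 380 FPKM, and Dcn, the decorin gene, at 40.2, 23.6 and 20.3 FPKM, differences of 0.74 and 0.95.

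Fosl1, which encodes the AP-1 subunit Fra-1, was the gene furthest below both wild types, with 7.97 FPKM in the knockout, 32.6 FPKM in the own-litter and 42.6 FPKM in the other-litter wild type. The log2 differences were -1.91 and -2.28. It was alone in its list: of 29 AP-1 and immediate early genes 0 rose and 1 fell, with a median of -0.01. The median against the other-litter wild type was -0.46. Fos had 3.02, 3.04 and 7.11 FPKM, Egr1 28.1, 30.6 and 60.7 FPKM and Dusp1 65.5, 75.4 and 152 FPKM. Fosl2 stood at 57.7, 60.4 and 57.5 FPKM. Other genes at least 2-fold below both were Gtpbp6, Ifi205, Cox6a2, Cd59a, Rpl26, Lrfn4 and Slc48a1, a haem transporter gene (14.96 FPKM, against 32.9 and 42.7 FPKM). Rpl26, a ribosomal protein gene with many processed copies in the genome, had 7.68 FPKM, against 22.01 and 18.8 FPKM, and 1.88 FPKM in the Lmna-knockout column, so its value is uncertain. Nme3 (0.169, 1.28 and 1.57 FPKM), the next furthest below both, missed the limit at -0.97. Armcx5, Rpap2 and Aldh1a3 also fell, by 1.44, 1.26 and 1.23 on the log2 scale, and were 0.90, 0.73 and 0.64 below the other-litter wild type.

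Many of the genes furthest from both wild types overlapped another expressed gene. By RefSeq neighbourhoods on GRCm38.p6, 1805 of the 11375 compared genes that could be matched by name (15.9%) overlapped another compared gene on either strand. Of the 52 genes at least 2-fold above both wild types 21 did (40.4%), and of the 9 below both 4 did (44.4%). In 14 of these 21 and in 3 of these 4 the overlapping gene lay on the opposite side of both wild types. The same was true of 293 of 1005 overlapping genes (29.2%) among all that lay above or below both. It is not known how reads of overlapping genes were assigned, so these values are uncertain. Yipf2, a Golgi membrane protein gene, had 25.3 FPKM in the knockout, 4.16 FPKM in the own-litter and 6.51 FPKM in the other-litter wild type, while Carm1, an arginine methyltransferase gene that overlaps it, differed by -0.60 and -0.57. Ascc1, a gene of an activating signal cointegrator complex, had 16.2 FPKM, against 3.75 and 6.22 FPKM, and the overlapping Anapc16 differed by -0.53 and -0.72. Sirt3, the mitochondrial deacetylase gene, had 12.8 FPKM, against 2.07 and 1.88 FPKM, and the overlapping Ric8 differed by -0.53 and -0.44. Sirt3 was listed at 0 in the Lmna-knockout column.

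The fall of Fosl1 had such a counterpart: Ccdc85b, which overlaps it, had 11.2 FPKM in the knockout, against 3.69 and 5.18 FPKM, differences of 1.37 and 0.98. Gtpbp6 had 0.531 FPKM, against 4.15 and 3.78 FPKM, beside differences of 0.93 and 1.00 in Plcxd1, and Lrfn4 had 1.44 FPKM, against 4.58 and 4.45 FPKM, beside differences of 0.85 and 1.09 in Pcx. Setdb1, a histone H3 lysine 9 methyltransferase gene, had 20.7 FPKM, against 9.41 and 8.68 FPKM (1.06 and 1.17), and the overlapping ceramide synthase gene Lass2 differed by -0.37 and -0.63. Abhd1, with 8.45 FPKM, against 0.179 and 0.115 FPKM, overlaps Preb, which differed by -0.11 and -0.24. The Lmna-knockout column stood near the Lbr-knockout column for several of these genes: Setdb1 at 19.002 FPKM, Yipf2 at 16.1 FPKM, Abhd1 at 5.95 FPKM, Gtpbp6 at 0.610 FPKM and Lrfn4 at 1.55 FPKM. Each knockout column stands for 2 samples, and both share the control columns here. None of Krt18, Aldh1a2, Upk1b, Wt1, Des, Myh3, Myh8, Igf2, H19, Bmp4 and Cd59a overlapped another compared gene.

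**Figure D5:**
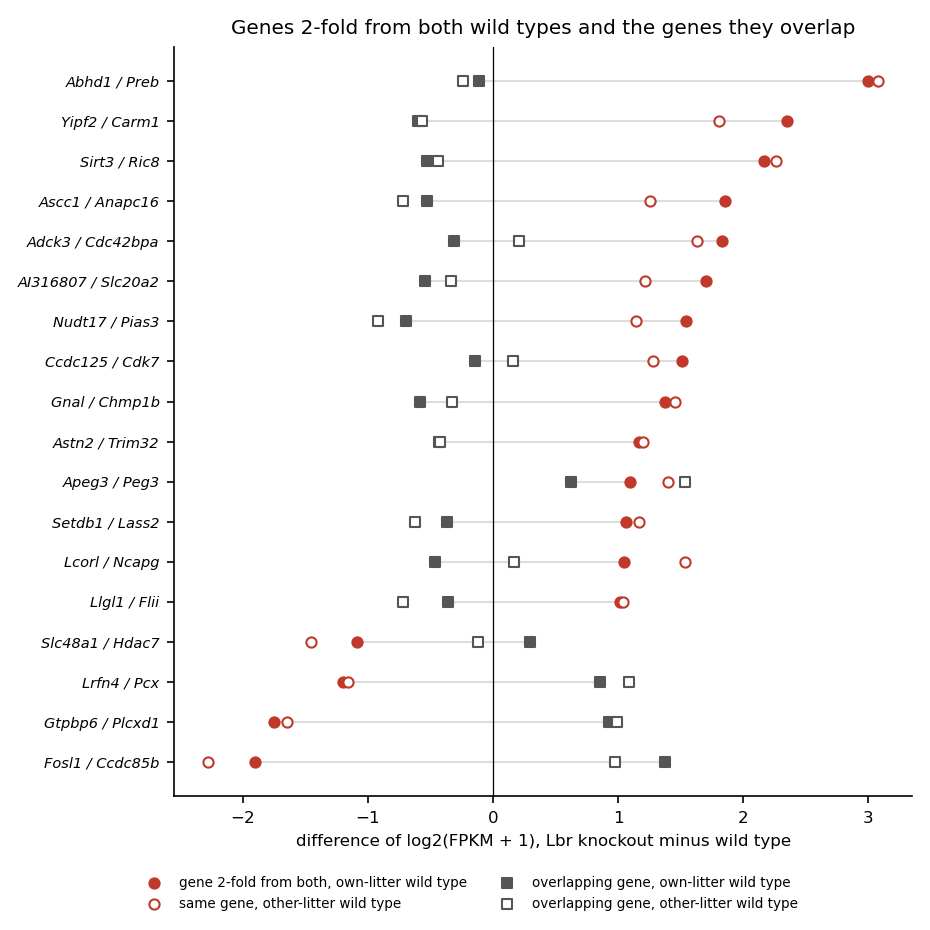
Genes at least 2-fold above or below both wild types (circles) beside each compared gene that overlaps them (squares), as the log2(FPKM + 1) difference of the Lbr knockout to the own-litter wild type (filled) and the other-litter wild type (open); small RNAs, predicted genes, pseudogenes and 1 further pair are left out. In most pairs the overlapping gene lies on the other side of 0, as for Yipf2 and Carm1 or Fosl1 and Ccdc85b; Apeg3 and Peg3 lie on the same side.

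Genes of cholesterol synthesis, to which the reductase part of the lamin B receptor belongs, did not change. Of 10 genes of the late pathway, Lbr among them, 0 rose and 0 fell (medians -0.05 and -0.10). Tm7sf2, which encodes the other enzyme of the same reductase step, had 1.49 FPKM in the knockout, 1.49 FPKM in the own-litter and 2.14 FPKM in the other-litter wild type. Cyp51, the enzyme just before that step, had 49.7 FPKM, against 54.6 and 43.4 FPKM, and Sc4mol, which acts after it, 43.1 FPKM, against 36.3 and 35.6 FPKM. The reductase gene Dhcr7 near the end of the pathway stood at 9.85, 10.3 and 10.9 FPKM. Hsd17b7, with 20.2 FPKM, against 25.99 and 22.4 FPKM, was at -0.35 the furthest of the list after Lbr. Of 11 genes of the earlier mevalonate pathway 0 rose and 0 fell (medians 0.02 and 0.17). Hmgcs1 was listed at 0 in all 3 columns. Sterol sensing and uptake genes did not change either, of 15 compared: Srebf2 stood at 23.5, 22.3 and 25.4 FPKM. Apoe, the apolipoprotein E gene, which macrophages express, came close to the limit with 42.0 FPKM, against 20.6 and 40.9 FPKM (differences of 0.997 and 0.04).

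Partners of the lamin B receptor in the nuclear envelope lay near the wild types as well. Of 18 genes of lamins and their partners, Lbr included, 0 rose and 0 fell (medians -0.00 and -0.12). Below both wild types were 8 of the 18 and above both 3, against 22.4% and 31.9% of all genes. Lmna had 106 FPKM in the knockout, against 114 and 147 FPKM, Lmnb1 21.4 FPKM, against 24.3 and 21.7 FPKM, and Tmpo, the gene of the lamina-associated polypeptide LAP2, 68.5 FPKM, against 66.6 and 60.1 FPKM. Tor1aip1, the gene of LAP1, was the furthest above, at 39.4, 31.5 and 30.6 FPKM (0.32 and 0.36). None of 18 genes of SUN proteins, nesprins and other envelope transmembrane proteins changed (medians -0.02 and -0.19), and 9 of them lay below both wild types and 5 above both. Sun1 stood at 8.52, 8.17 and 9.79 FPKM and Syne1, the nesprin 1 gene, at 7.21, 5.30 and 4.71 FPKM. None of 37 nucleoporin and karyopherin genes changed (medians -0.06 and 0.03). Of 21 genes of H3K9 methylation and heterochromatin protein 1, Setdb1 alone rose. The genes of the HP1 proteins that bind the lamin B receptor, Cbx5, Cbx3 and Cbx1, differed from the own-litter wild type by -0.07, 0.19 and -0.01.

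Genes of dividing cells did not reach 2-fold against the own-litter wild type. Of 34 mitosis genes and 38 DNA replication genes, none rose or fell (medians -0.06 and 0.05 to the own-litter wild type, -0.05 and -0.10 to the other). Of the 34 mitosis genes, 13 lay below both wild types and 5 above both, against 22.4% and 31.9% of all genes. Against the other-litter wild type 2 mitosis genes were at least 2-fold higher, beside 1.54% of all genes. These were Mki67, the gene of the proliferation antigen Ki-67, with 122 FPKM in the knockout, 113 FPKM in the own-litter and 59.7 FPKM in the other-litter wild type, and Cenpe, a kinetochore motor gene, with 46.9 FPKM, against 48.0 and 22.02 FPKM. Of 16 genes of cell cycle exit Cdkn1c alone rose. Cdkn1a, the gene of the inhibitor p21, had 232 FPKM, against 205 and 374 FPKM, and Gas1, a growth arrest gene, 16.7 FPKM, against 8.82 and 5.82 FPKM (0.85 and 1.38). None of 18 p53 target genes, 21 genes of the integrated stress response and 18 genes of the unfolded protein response rose or fell. Of the 21 integrated stress response genes, however, 11 lay below both wild types and 1 above both, against 22.4% and 31.9% of all genes (medians -0.04 and -0.29). Against the other-litter wild type, the stress response gene Chac1 (-1.93) and the p53 target Gdf15 (-1.45) were at least 2-fold lower, beside 0.541% of all genes. The medians of the 40 genes of oxidative phosphorylation were 0.15 and -0.25 and those of 49 ribosomal protein genes 0.16 and -0.28. In both lists most members lay between the wild types, 29 of the 40 and 39 of the 49, against 45.7% of all genes.

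Among other lineages, genes of Schwann cells and of the neural crest from which they come lay mostly below the own-litter wild type, 8 of 11 compared, without falling by 2-fold. Over all genes compared, 4486 of 11463 lay below that wild type. Below both wild types were 5 of the 11 Schwann cell genes, against 22.4% of all genes. Sox10, the transcription factor of that lineage, had 5.46 FPKM in the knockout, against 10.9 and 7.85 FPKM (-0.88 and -0.45), Ngfr, a neurotrophin receptor gene, 22.1 FPKM, against 38.8 and 31.5 FPKM (-0.78 and -0.49), and Foxd3 2.16 FPKM, against 4.37 and 2.64 FPKM (-0.77 and -0.20). Mbp, the myelin basic protein gene, rose, at 3.97 FPKM, against 1.38 and 2.72 FPKM, and was the only one of the 11 to do so (medians -0.25 and -0.20). None of 7 endothelial genes changed. Of 8 adipocyte genes 1 rose, Fabp4, a fatty acid carrier gene that macrophages also express, at 10.5 FPKM, against 4.67 and 4.58 FPKM. Of 14 pericyte and smooth muscle genes Des alone rose, and the medians were 0.02 and -0.47. Acta2, the smooth muscle actin gene, had 4164, 4783 and 7479 FPKM, and Cnn1, the calponin gene, 151, 165 and 287 FPKM.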

How the data were processed

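RNA was isolated with TRIZOL and cleaned on RNeasy columns, per the labels' protocols, which name an Ovation and a further NuGEN library kit by sample numbers that the sample titles do not carry. The authors deposited one table of FPKM values with 7 value columns, of which 0 could not be matched to a labelled group, and the 4 myoblast columns are used here. Per the submitters' processing notes the genome build was mm9; the sources used here do not name the aligner, the counter, the annotation or strand use, nor how 2 knockout samples became 1 column. Read depth is unknown, so no interval can be given.

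From the deposited FPKM values, log2(FPKM + 1) differences were computed in Python 3.11.15 with numpy 2.4.6 and pandas 2.3.3, and drawn with matplotlib 3.10.9; the arithmetic was checked on simulated data. With 1 column a group no test was run. The gene sets were 51 lists with 1073 entries, 8 of them not found under that name in the table. The members and lists were chosen with earlier results of these data known. Named genes are the defining members of each list and up to 6 others by size of difference, the 15 furthest above and 10 furthest below both wild types, and the 10 largest differences each way against the own-litter wild type; genes named beyond these were chosen after their values were seen. Small RNAs, predicted genes and pseudogenes were counted but not named, and a few other genes that the rule picks are not reported here. Promoters and gene overlaps come from RefSeq on GRCm38.p6, to which 11375 of 11463 genes were matched by name. Alternatives changed the pseudocount, the filter, the scaling and the control.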

Additional observations from a re-analysis of the deposited data

How the results depend on the processing

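No paired analysis was possible because each group has a single deposited column, and leaving out each knockout replicate was not run for the same reason. With a pseudocount of 0.1 FPKM, 454 genes were higher and 32 lower than the own-litter wild type, 102 were higher and 18 lower than both wild types, and the mesothelial median was 2.75. With a pseudocount of 5 FPKM these counts were 81, 5, 15 and 3, and the mesothelial, macrophage and sarcomere medians were 0.68, 1.13 and 0.70. With a filter at a mean of 5 FPKM the counts were 125, 7, 26 and 5. The mesothelial median was then 1.45, but only Aldh1a2 (2.515) and Krt19 (0.389) of that list remained. With no filter that median was 0.41. With quantile normalization 22 genes were lower than the own-litter wild type, and the median of all genes was -0.03 in place of 0.05. With the other-litter wild type as control and the filter applied to it, 179 genes were higher and 62 lower (74.3% higher, against 95.3% with the own litter), and the macrophage and sarcomere medians were 0.083 and 0.69. With the mean of both wild types 132 genes were higher and the macrophage median was 0.89. The causes of these shifts were not tested. The Lbr difference and the 4 list medians (sarcomere, macrophage, mesothelial and late cholesterol synthesis) kept their sign in these alternatives, while the median of all genes changed sign with quantile normalization. The Lbr difference ran between -0.73 and -1.05 and passed 2-fold with a pseudocount of 0.1 FPKM (-1.05), centred columns (-1.03) and quantile normalization (-1.05). The alternatives for counts against both wild types were chosen after seeing the data.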

Other observations

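Genes listed at exactly 0 in the Lbr-knockout or the own-litter column were left out of the main comparison. A gene at 0 only in the other-litter wild type, such as Ifi202b, kept its difference to the own-litter wild type. Among genes that reached the mean of 1 FPKM, 48 were listed at 0 in the Lbr-knockout column, and 47 of these were above 0 in both wild types. Of the 47, 39 were also listed at 0 in the Lmna-knockout column and 8 were not. Examples are Gnas, listed at 0 in the Lbr knockout, 899 FPKM in the own-litter and 871 FPKM in the other-litter wild type, and G6pdx, listed at 0, against 40.4 and 50.4 FPKM. Protocadherin genes made up 16 of the 48. In the other direction, 14 genes were listed at 0 in the own-litter wild type, and 13 of these were above 0 in the knockout.

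Hox genes stood between the wild types. Of 25 compared, 0 rose and 0 fell, 19 lay between the wild types, and the medians were -0.13 against the own-litter and 0.36 against the other-litter wild type. Of 6 bone and cartilage genes Col2a1, the cartilage collagen gene, rose, with 9.01 FPKM in the Lbr knockout, 3.69 FPKM in the own-litter and 6.37 FPKM in the other-litter wild type.

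Of the lists not described so far, 2 of 3 MHC class II genes rose (medians 1.14 and -0.18). None rose or fell among 16 genes of fatty acid synthesis (medians 0.04 and 0.05), 23 matricellular and matrix genes (0.06 and -0.02), 12 genes of metallothioneins and zinc transport (0.12 and 0.04) and 4 genes of neutrophil granules (0.56 and 0.27).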
